A study of Mus musculus with 6 samples.

Results

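The presynaptic active zone is the patch of nerve terminal membrane where synaptic vesicles dock, are primed and fuse. Its scaffold is built from the giant proteins Bassoon (Bsn) and Piccolo (Pclo), the RIM proteins (Rims1, Rims2), the ELKS/CAST proteins (Erc1, Erc2) and the liprins (Ppfia3). The Munc13 proteins (Unc13a, Unc13b, Unc13c) sit on that scaffold and open the SNARE protein syntaxin, the step that makes a docked vesicle ready to fuse. The members were chosen by symbol: every non-control probe of the array whose gene name was one of these 10 symbols. That gave 20 probes, each spotted once per array, out of 55681 different non-control probes, and the 10 genes stand beside 20975 genes measured on these arrays. Bsn, Rims2, Unc13b and Unc13c had 1 probe each and Pclo had 4.

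Total RNA of brain synaptosomes, the pinched-off nerve terminals isolated from homogenised mouse brain, was hybridised to 1 single-colour array per sample, 3 from knock-in and 3 from wild-type mice. The series title names FMR1 mRNA and FXTAS, a late-onset tremor and ataxia disorder of FMR1 repeat carriers, but the labels do not spell out the knock-in allele, the strain or the age, and samples whose descriptions read KI carry the genotype entry knock-out. No label states if samples of a group come from separate animals, so a p-value here reflects sample-to-sample spread that can be purely technical. Knock-in replicate 1 is labelled with 0.0 µg of input RNA against 0.2 µg for the other 5 samples, and the RNA integrity number was 10 throughout.

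The 3 knock-in arrays and wild-type replicate 3 shared a slide (slide 1), and wild-type replicates 1 and 2 lay on another (slide 2). The 75th percentile of the processed signal was between 883 and 910 across knock-in arrays, against 578, 580 and 823 for wild-type replicates 1 to 3. Levels below are therefore log2 values relative to that percentile of the same array, and each difference subtracts the wild-type mean from the knock-in mean, with limma's moderated standard error (SE). Fmr1 itself read 2.08, 2.24 and 2.27 on the knock-in arrays, against 1.42, 1.33 and 1.37 on the wild-type arrays, a difference of 0.82 (SE 0.10, limma's adjusted p = 0.326). All 12 synaptosome markers looked for were well above background on all 6 arrays, with summed signals of 511 to 534 times the percentile in knock-in and 498 to 541 in wild type.

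The active zone probes are 60 bases long and are named by transcript position, and several genes are read at more than 1 place. The middle 30 bases (16 to 45, 5′ to 3′) are shown for probes assigned to different transcripts of Erc1, Pclo and Rims1, and for the Unc13a probe assigned to a RefSeq transcript. The Pclo probes shown are each contrasted below with the probe at base 16786, and not with each other. Letters follow the transcript strand. Each name gives the base at which the probe starts in the transcript the array annotation assigns to it.
Erc1 408: gaaagagcgggccttgagaaaagatgaagc
Erc1 3634: aagttgtatattggacacctgacagccctc
Pclo 11027: acataagtccacagaaagtactccatccag
Pclo 15115: aaggaaatgaaaaccgatggtgaacaacta
Rims1 803: agccttgggtcctgaacagaagcaggcatc
Rims1 4244: cagcatggtgattggatggtataaattgtt
Unc13a 4887: ccaaaaacaacagctgggcgcccaagtata

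Transcripts of all 10 genes were detected in the synaptosome RNA by at least 1 probe, and no probe changed past the threshold between knock-in and wild type. Of the 20 probes, 18 were well above background on all 6 arrays and entered the test. The other 2, the Erc1 probe at base 1893 and the Erc2 probe at base 1811, were not well above background on any array, with processed signals between 3.54 and 6.29. None of the 18 passed limma's adjusted p of 0.05, where 0.00682% of all 29318 tested probes did. At an unadjusted p under 0.05 there were 3, or 16.7%, against 10.4% of all probes: 1 probe, of Erc1 at base 408, was higher (4.29% of all probes were), and 2 probes, Pclo at base 11027 and Unc13a at base 5053, were lower (6.13% of all probes were). The groups did not overlap for 6 of the 18 (33.3%), against 19.9% of all probes. The knock-in arrays lay wholly above the wild-type arrays for 2 probes, Erc1 at base 408 and Rims2, where 7.93% of all probes did so. They lay wholly below for 4 probes, of Pclo, Unc13a, Erc2 and Ppfia3, where 12% of all probes did so. In all, 14 of the 18 differences (77.8%) were below 0, against 58.3% of all probes. Several of these probes read the same gene. By the brightest probe of each gene, 6 of the 10 genes were lower, where 59.1% of all genes were. The median difference was -0.14 over the 18 probes and -0.05 over all probes, and the median SE of the 18 was 0.17. With the authors' value table, 11 differences were below 0 and the median over all probes was -0.0091. The share of all probes below 0 was not counted there.

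These counts moved when 1 array was left out, which also leaves fewer degrees of freedom. The count at an unadjusted p under 0.05 was 0 when knock-in replicate 1, knock-in replicate 2 or wild-type replicate 2 was left out, where 6.05%, 4.47% and 8.55% of all probes reached that p. It was 5 without wild-type replicate 3, where 15.6% of all probes did. The differences of the 3 probes kept their direction: on leaving out an array, Pclo at base 11027 ran from -0.52 to -0.31, Unc13a at base 5053 from -0.63 to -0.33 and Erc1 at base 408 from 0.40 without wild-type replicate 2 to 0.96 without wild-type replicate 3. With slide as a fixed block, where only wild-type replicate 3 stands against knock-in, the 3 differences were -0.35, -0.46 and 0.17 in that order. The count of probes without overlap was 11 (61.1%) on leaving out knock-in replicate 3 and 10 (55.6%) on leaving out wild-type replicate 3. Fewer arrays overlap less often, and of all probes 32.1% and 36.6% were then without overlap. Among the 18 probes, knock-in replicate 1 was the lowest array for 9 and wild-type replicate 2 the highest for 8.

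**Figure D1:**
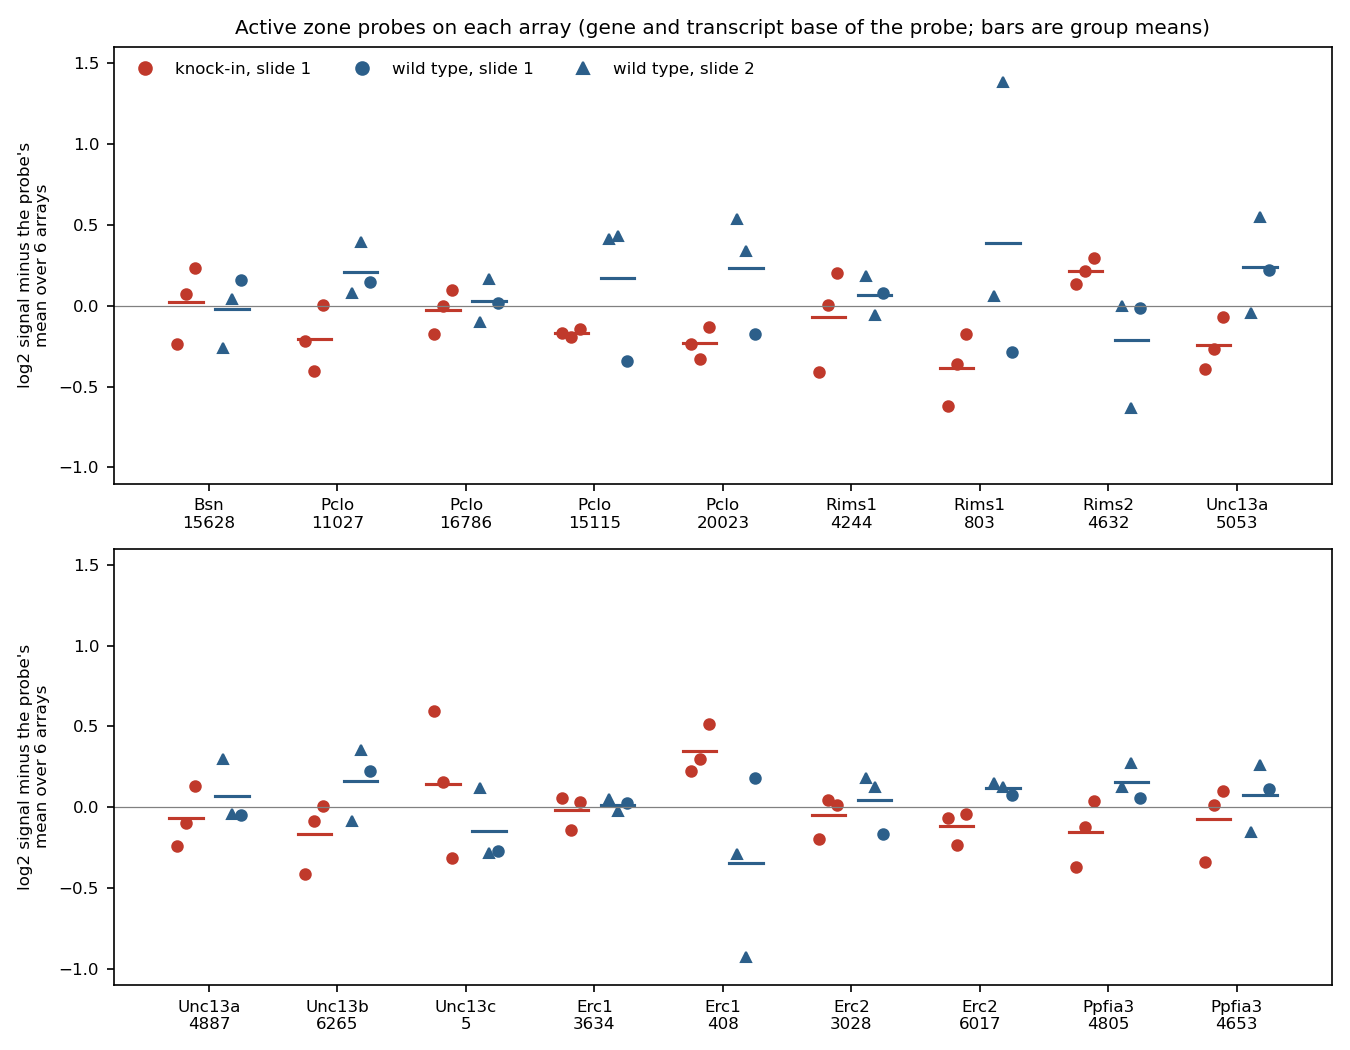
Signal of the 18 tested active zone probes on each array, as log2 signal minus the probe's own mean over the 6 arrays (y axis), by gene and transcript base (x axis). Red points are knock-in, blue points wild type, triangles mark the wild-type arrays of slide 2 and bars are group means. Knock-in lies wholly above wild type for Rims2 and Erc1 at base 408, and the Rims1 probe at base 803 has a single high triangle, wild-type replicate 2.

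Of the Munc13 genes, Unc13a and Unc13b read lower and Unc13c higher in knock-in, none past the threshold. Unc13a encodes the main priming factor of excitatory terminals in the forebrain. Its probe at base 5053 of the cDNA AK141188 (chr8:74148542-74148601, minus strand, build mm9) had processed signals of 524, 587 and 676 on the knock-in arrays, against 436, 660 and 746 on the wild-type arrays. On the scaled log2 axis these were -0.75, -0.63 and -0.43 in knock-in, against -0.41, 0.19 and -0.14 in wild type. The groups did not overlap, though the highest knock-in value and wild-type replicate 1 differed by little. The difference was -0.48 (SE 0.18, 95% interval -0.91 to -0.05), or 0.716 of wild type, with limma's adjusted p = 0.460. It was -0.46 within slide 1. The other Unc13a probe, at base 4887 of NM_001029873 and part of which is shown above (chr8:74154416-74154475, minus strand), read -1.05, -0.91 and -0.68 in knock-in, against -0.51, -0.86 and -0.86 in wild type. Here the groups overlapped, and the difference was -0.14 (SE 0.15, 95% interval -0.51 to 0.24). Between the 2 probes, within each array, the group difference was 0.35 with an exact two-sided permutation p of 0.4, so the probes were not shown to disagree.

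Unc13b encodes the Munc13 protein that serves a smaller set of terminals. Its probe (chr4:43277637-43277696, plus strand) read 1.93, 2.26 and 2.36 in knock-in, against 2.26, 2.70 and 2.57 in wild type. The ranges overlapped at wild-type replicate 1, and the difference was -0.33 (SE 0.17, limma's adjusted p = 0.518). Unc13c encodes the family member best known from the cerebellum. Its only probe starts at base 5, the 5′ end of the transcript assigned to it (chr9:73781310-73781369, minus strand). The probe read 0.93, 0.49 and 0.03 in knock-in, against 0.46, 0.05 and 0.06 in wild type. Knock-in replicate 3 was the lowest of the 6 arrays, and the difference of 0.29 (SE 0.25, 95% interval -0.31 to 0.89) was close to its SE. Leaving out knock-in replicate 1 gave 0.067, and leaving out knock-in replicate 3 gave 0.52. The within-array contrast of Unc13a minus Unc13c differed between groups by -0.77, with the groups overlapping (exact permutation p = 0.2, 0.24 adjusted over the 6 paralog pairs compared). Unc13a minus Unc13b differed by only -0.15 (exact permutation p = 0.2).

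As for Unc13c, knock-in replicate 1 was the highest array for nuclear RNA markers (3 in the test) and for striatal markers. The striatal markers were higher in knock-in in 12 of 12, with a median difference of 0.83, each with the groups overlapping. Relative to the mean of the 6 arrays these were at 2.05, 0.57 and -0.99 in knock-in replicates 1 to 3 and at 1.42, -1.53 and -1.51 in wild-type replicates 1 to 3, with all 12 in the test, 10 of them well above background on every array, and summed signals of 58.3 to 322 in knock-in and 51.3 to 227 in wild type (in units of the 75th percentile). Cerebellar granule cell markers were at 0.13, -0.16 and -0.25 in knock-in and at 0.34, 0.23 and -0.29 in wild type. Of those 9, 7 were detected, with summed signals of 23.1 to 26.8 in knock-in, against 24.0 to 27.1 in wild type. The granule cell genes Gabra6 and Cbln3 were not well above background on any array. Most of the sum came from Etv1, whose mean log2 value was 4.35 in knock-in, against 4.39 in wild type. The other detected markers except Zic1 were below the 75th percentile on every array. Zic1 and Zic2 varied most, from 2.51 and -1.63 in wild-type replicate 1 to -0.03 and -2.95 in wild-type replicate 3. The sum and the array pattern therefore rest mostly on a few of these markers. The part of these markers in the Unc13c values was not tested. In bulk RNA, fewer terminals of a kind and less RNA per terminal cannot be told apart.

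The RIM genes read on opposite sides of wild type, Rims2 higher and Rims1 lower, neither past the threshold. RIM proteins bind Rab3 on the vesicle, Munc13 and calcium channels. The Rims2 probe (chr15:39513319-39513378, plus strand) read 0.18, 0.26 and 0.35 in knock-in, against 0.05, -0.58 and 0.03 in wild type. Every knock-in value was above every wild-type value, with wild-type replicate 2 far below the rest. The difference was 0.43 (SE 0.19, 95% interval -0.03 to 0.89, limma's adjusted p = 0.489), and 0.23 within slide 1. The Rims1 probe at base 4244 (chr1:22278591-22278650, minus strand) read -0.11, 0.30 and 0.50 in knock-in, against 0.48, 0.24 and 0.38 in wild type, a difference of -0.14 (SE 0.18) that turned to 0.034 without knock-in replicate 1. Rims1 minus Rims2 within each array was -0.29, 0.04 and 0.15 in knock-in, against 0.43, 0.82 and 0.34 in wild type. These did not overlap, and the difference of -0.57 had an exact two-sided permutation p of 0.1 (no lower value is possible with 3 arrays a group), and 0.24 after adjustment over the 6 pairs. It was -0.38 within slide 1.

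The second Rims1 probe had 1 array far from the rest. At base 803 (chr1:22545140-22545199, minus strand) it had processed signals of 623, 768 and 874 in knock-in, against 656, 1647 and 732 in wild type. Wild-type replicate 2 stood far above the other 5 arrays here, and not at base 4244. The difference was -0.77 (SE 0.42, limma's adjusted p = 0.527), and it was -0.27 (SE 0.18) without wild-type replicate 2. Within slide 1, which leaves out wild-type replicate 1 as well, it was -0.10. Base 803 minus base 4244 within each array differed between groups by -0.64, with overlap (exact two-sided permutation p = 0.2).

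All 4 Pclo probes, spread along the plus strand of chromosome 5, had differences below 0. Bases 11027 and 16786 are counted along NM_001110796, and bases 15115 and 20023 along NM_011995. The probe at base 11027 (chr5:14682209-14682268) read -1.36, -1.55 and -1.14 in knock-in, against -1.06, -0.75 and -1 in wild type. All knock-in values were below all wild-type values, and the difference was -0.41 (SE 0.15, 95% interval -0.77 to -0.05, limma's adjusted p = 0.460), with -0.35 within slide 1. The probe at base 16786 (chr5:14795934-14795993) read 4.53, 4.71 and 4.80 in knock-in, against 4.61, 4.87 and 4.72 in wild type, and its difference of -0.05 (SE 0.13) was within the spread and lay above 0 in 5 of 19 alternatives. Base 11027 minus base 16786 within each array differed between groups by -0.36, without overlap (exact two-sided permutation p = 0.1, 0.32 adjusted over the 8 within-gene contrasts).

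The probes of the other Pclo transcript split by slide. At base 15115 (chr5:14855569-14855628) the values were -0.44, -0.47 and -0.41 in knock-in, against 0.14, 0.16 and -0.61 in wild type. At base 20023 (chr5:14863399-14863458) they were 1.37, 1.28 and 1.48 in knock-in, against 2.14, 1.95 and 1.44 in wild type. In both, wild-type replicate 3 read like the knock-in arrays of its slide, while the wild-type arrays of slide 2 were higher. The differences were -0.34 (SE 0.22) and -0.47 (SE 0.19), and within slide 1 they were 0.17 and -0.06. Base 15115 minus base 16786 within each array differed between groups by -0.29, with overlap (exact two-sided permutation p = 0.4). For base 20023 minus base 16786 it was -0.41, also with overlap (exact two-sided permutation p = 0.2). Slide and sample cannot be told apart here, since slide 2 held wild-type arrays only.

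**Figure D2:**
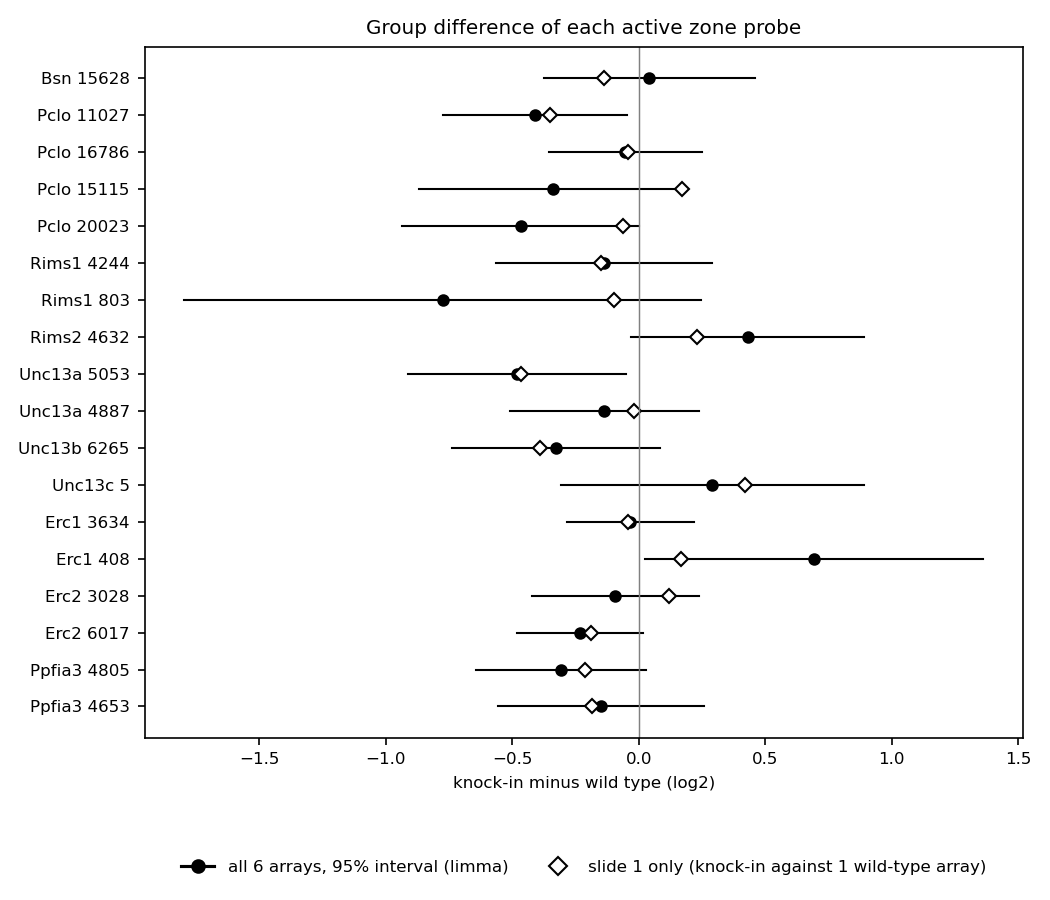
Difference of knock-in minus wild type (x axis, log2) for each of the 18 tested probes (y axis, gene and transcript base). Filled points with lines are limma's estimates with 95% intervals, and open diamonds are the same difference within slide 1, against 1 wild-type array. The intervals of Pclo at base 11027, Unc13a at base 5053 and Erc1 at base 408 lie clear of 0, and the diamonds of Bsn, Pclo at base 15115 and Erc2 at base 3028 lie on the other side of 0 from their points.

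Bsn, whose protein shares its scaffold role with Piccolo, showed no difference beyond its error. Its probe (chr9:107998602-107998661, minus strand) read 4.95, 5.26 and 5.42 in knock-in, against 4.92, 5.23 and 5.35 in wild type. The 2 ranges were almost the same, and the difference was 0.04 (SE 0.17, 95% interval -0.38 to 0.46). Within slide 1 it was -0.14. Bsn minus Pclo by their brightest probes differed by 0.09 between groups (exact permutation p = 0.5).

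The ELKS genes also read on opposite sides of wild type by 1 probe each, Erc1 higher and Erc2 lower, neither past the threshold. Erc1 is expressed in many tissues, and Erc2 mainly in brain. The Erc1 probe at base 408 (chr6:119774444-119774503, minus strand) had processed signals of 344, 372 and 433 in knock-in, against 158, 102 and 311 in wild type. On the scaled log2 axis it read -1.36, -1.29 and -1.07 in knock-in, against -1.87, -2.52 and -1.40 in wild type. Knock-in was wholly above wild type, by a narrow margin over wild-type replicate 3. The difference was 0.69 (SE 0.28, 95% interval 0.02 to 1.36, limma's adjusted p = 0.473), or 1.62-fold, and it was 0.17 within slide 1.

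The other detected Erc1 probe, at base 3634 (chr6:119544902-119544961, minus strand), did not show this. It read -2.75, -2.95 and -2.77 in knock-in, against -2.76, -2.83 and -2.78 in wild type, a difference of -0.03 (SE 0.10). Base 3634 minus base 408 within each array was -1.39, -1.66 and -1.70 in knock-in, against -0.89, -0.32 and -1.38 in wild type. The groups did not overlap, with wild-type replicate 3 next to the knock-in arrays, and the difference of -0.72 (exact two-sided permutation p = 0.1, 0.32 adjusted over the 8 contrasts) was -0.21 within slide 1. The array assigns the probes to different Erc1 transcripts, NM_178085 for base 408 and NM_053204 for base 3634, so the bases are not counted along the same sequence.

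At base 6017 of Erc2 (chr14:29291658-29291717, plus strand) the values were 4.46, 4.30 and 4.48 in knock-in, against 4.68, 4.66 and 4.60 in wild type. The groups did not overlap, and the difference was -0.23 (SE 0.10, 95% interval -0.48 to 0.02, limma's adjusted p = 0.489), with -0.19 within slide 1. At base 3028 (chr14:29116077-29116136) the difference was -0.09 (SE 0.14) and turned to 0.12 within slide 1. Base 3028 minus base 6017 within each array differed between groups by 0.14, with overlap (exact permutation p = 0.4). Erc1 minus Erc2 by their brightest probes was higher in knock-in by 0.92, without overlap (exact permutation p = 0.1, 0.24 adjusted over the 6 pairs), and by 0.36 within slide 1.

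Ppfia3 encodes liprin-alpha 3, an adaptor that binds RIM and the ELKS proteins. Its probes lie close together on the minus strand of chromosome 7. At base 4805 (chr7:52594497-52594556) the values were 3.52, 3.77 and 3.93 in knock-in, against 4.02, 4.17 and 3.95 in wild type. Knock-in replicate 3 and wild-type replicate 3 nearly met, and the difference was -0.31 (SE 0.14, limma's adjusted p = 0.493). At base 4653 (chr7:52594649-52594708) it was -0.15 (SE 0.17), with overlap. The contrast between the 2 probes was -0.16 (exact permutation p = 0.2).

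**Figure D3:**
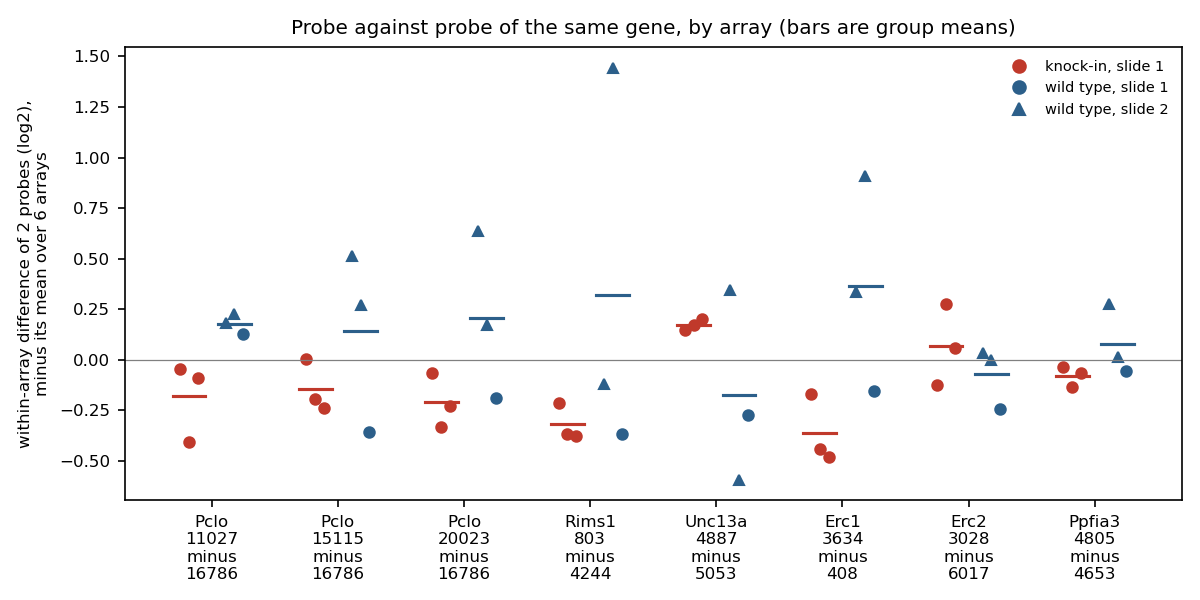
Within-array difference between 2 probes of the same gene (log2, minus its mean over the 6 arrays, y axis) for the 8 probe pairs (x axis). Red points are knock-in, blue points wild type, triangles mark slide 2 and bars are group means. The groups are apart for Pclo base 11027 and for Erc1, where wild-type replicate 3 lies beside the knock-in arrays.

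Of 26 measured partners, which include the other liprins, RIM-binding proteins, Rab3 genes, receptor phosphatases and presynaptic calcium channels, 18 were lower and 8 higher (69.2% lower, against 59.1% of all 20975 genes by their brightest probe), and 15 were lower with the authors' value table. The median difference was -0.08, against -0.05 over all genes, and 0 passed limma's adjusted threshold, where 0.00954% of all genes did. At an unadjusted p under 0.05 there were 0 higher and 2 lower, against 4.15% and 5.86% of all genes. Without overlap there were 1 higher and 5 lower, against 7.87% and 12.5% of all genes. The partners of smallest p were Rimbp2, which links RIM to calcium channels, at -0.74 (SE 0.19), and Cacna1b, the pore subunit of N-type calcium channels, at -0.53 (SE 0.17). Rimbp2 read -3.60, -3.60 and -3.21 in knock-in, against -2.72, -2.44 and -3.04 in wild type. Cacna1b read -3.92, -4.05 and -3.78 in knock-in, against -3.22, -3.23 and -3.72 in wild type. Both were wholly lower in knock-in, with wild-type replicate 3 nearest to it, and within slide 1 the differences were -0.43 and -0.20. Unc13d at -0.20, a Munc13 relative known from granule release in immune cells, and the receptor phosphatase gene Ptprs at -0.24 followed. Pfn2, named after its value was seen, was also wholly lower, and Ppfia1, likewise, was the only partner wholly higher.

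Of 19 measured genes, among them the syntaxins, Snap25, Vamp2, the complexins and synaptotagmins, 18 were lower and 1 higher (94.7% lower, against 59.1% of all genes). That count depended on the scaling and on 1 array: 12 of the 19 were lower with quantile normalization, 11 with the authors' value table and 14 without knock-in replicate 1. The median over all kept probes was -0.02, -0.0091 and -0.039 in those settings, against -0.05 in the main one. The share of all genes that were lower was not counted there. In the main scaling the median difference of the 19 was -0.13. The exception, named after its value was seen, was the calcium sensor gene Doc2b. None passed the adjusted threshold or an unadjusted p under 0.05 in limma, where 4.15% of all genes were higher and 5.86% lower at that p, and the largest differences among the 4 of smallest p were -0.43 (SE 0.29) for Vamp1 and -0.27 (SE 0.13) for Napa, which encodes the SNARE-disassembly adaptor alpha-SNAP and was the only one wholly below wild type (12.5% of all genes were). Cadps, a second priming factor, was at -0.23 and Syt1, the calcium sensor of fast release, at -0.23. The genes share arrays with the active zone members, so the shared direction is not independent of theirs.

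Several marker lists also differed over the arrays, in both directions. Relative to the mean of the 6 arrays, forebrain excitatory neuron markers were at -0.40, -0.04 and 0.13 in knock-in replicates 1 to 3 and at -0.16, 0.26 and 0.21 in wild-type replicates 1 to 3. All 9 were detected, 8 were lower, and their median difference was -0.22, with summed signals of 106.7 to 150.1 in knock-in and 124 to 162 in wild type. The median of the active zone probes was at -0.23, -0.09 and 0.02 in knock-in and at 0.07, 0.15 and 0.04 in wild type, and the fusion genes were at -0.17, -0.09 and 0.05 in knock-in and at -0.01, 0.15 and 0.08 in wild type. Knock-in replicate 1 was lowest and wild-type replicate 2 highest in all 3, but wild-type replicate 1 was second lowest for the forebrain markers and second highest for the active zone probes. Oligodendrocyte markers were higher in 7 of 7, with a median difference of 0.27 and summed signals of 187 to 256 in knock-in and 159 to 225 in wild type, and wild-type replicate 2 was their lowest array. Synaptosome markers were higher in 9 of 12, with a median difference of 0.04. The part of these markers in the lower readings was not tested.

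**Figure D4:**
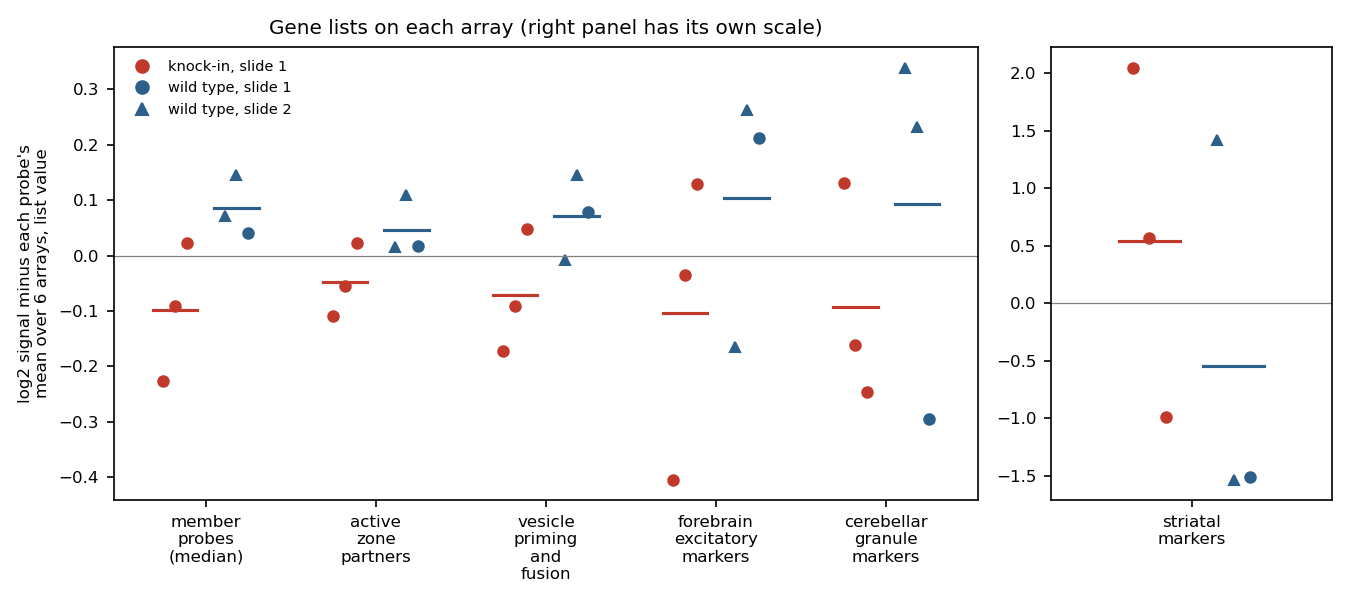
List value on each array (y axis, log2 signal minus each probe's mean over the 6 arrays) for the active zone probes as a median and for 5 gene lists as means (x axis). Red points are knock-in, blue points wild type, triangles mark slide 2 and bars are group means. Knock-in replicate 1 is lowest and wild-type replicate 2 highest for the active zone probes, their partners, the fusion genes and the forebrain markers, and striatal markers span 2.05 to -1.53.

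The genes most like Unc13a across the arrays were looked up by Pearson correlation of the 6 array values, with the brightest Unc13a probe, over 20975 genes. The 5 highest lay between 0.996 and 0.998 and included Idh3g, a subunit of a mitochondrial dehydrogenase, and Rbfox3, the splicing factor used as a marker of neuronal nuclei. The others were 1700048F04Rik and 2 transcripts named only by chromosome position. With 6 arrays such values are common: 502 genes exceeded 0.95. Among the members, Unc13b stood at 0.94 and Ppfia3 at 0.82, while Rims2 stood at -0.85, Unc13c at -0.78 and Erc1 at -0.73. These points share arrays and scaling, and the values are descriptions.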

How the data were processed

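Agilent Feature Extraction 10.7.3.1 quantified the spots, per the file headers, and gave a deposited processed intensity per spot, with a fitted background surface subtracted and detrended within the array, and no normalization between arrays. The authors' deposited value table holds log2 values whose normalization no label or header states. Its ranks followed the raw median intensity (Spearman 1 on each array).

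Log2 processed intensities were scaled to the 75th percentile of non-control spots. Outlier-marked spots were left out unless all spots of a probe were marked. Probes well above background on at least 3 of 6 arrays (29318) were fitted in R 4.3.3 with lmFit and eBayes of limma 3.58.1 (two-sided, p-values adjusted by Benjamini-Hochberg across these probes). The fit was tested on simulated data. Genes of the lists were represented by their brightest tested probe, named through RefSeq GRCm38.p6. Coordinates are those of the array annotation (mm9). Probe letters were on the transcript strand for 18 of 23 probes comparable with RefSeq promoters (GRCm38.p6), and on the opposite strand for 0. Single contrasts used exact permutation over 6 arrays.

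Named by rule were all member probes, Fmr1, 4 genes per pathway list and 5 genes most like Unc13a. Gabra6, Cbln3, Etv1, Zic1, Zic2, Doc2b, Pfn2 and Ppfia1 were named outside this rule, after their values were seen. Members and lists were chosen with earlier results of these data known.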

Additional observations from a re-analysis of the deposited data

How the results depend on the processing

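No active zone probe passed limma's adjusted threshold under any of the 20 alternatives, where the lowest adjusted p was 0.194. Of 334 values of the 18 probes under the alternatives, 317 kept their direction, and 11 probes never turned. Part of this was fixed in advance. The filter settings, kept outlier spots, replicate block, intensity trend and brightest-probe setting repeated the main differences, so those values could not turn. The count at an unadjusted p under 0.05 (3 probes) became 5 with normexp and 7 with an intensity trend and robust moderation. It was 1 gene with the mean of the kept probes of each gene. The share of all probes at that p was not counted under these alternatives, so the counts cannot be read as a change of the members alone. On leaving out an array the count ran from 0 to 5, where 4.47% to 15.6% of all probes reached that p. The count without overlap (6) became 3 with the authors' value table and 2 genes with the mean of the probes, where the share of all probes was not counted. It ran from 6 to 11 on leaving out an array, where 23.7% to 37.6% of all probes were without overlap. Contrasts without overlap within genes (2) became 1 with the authors' value table, and ran from 2 to 6 on leaving out an array, and those of paralogs from 2 to 4.

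With the authors' value table the median of the partners was -0.022, against -0.0091 over all kept probes. Leaving out an array moved it between -0.16 and -0.061, and that of the fusion genes between -0.23 and -0.074. With slide as a fixed block and with slide 1 alone, which give the same differences, Bsn turned to -0.14, Erc2 at base 3028 to 0.12 and Pclo at base 15115 to 0.17, and the contrasts turned to 0.21 for Pclo base 15115 minus 16786, 0.048 for Rims1 base 803 minus 4244 and -0.10 for Bsn minus Pclo. Pclo at base 16786 turned to 0.0042 with normexp, 0.019 with quantile normalization and 0.053 with the authors' value table, which also turned Ppfia3 at base 4653 to 0.0087 and Erc1 at base 3634 to 0.051. On leaving out an array, Bsn ran from -0.080 to 0.17, Pclo at base 16786 from -0.12 to 0.021, Rims1 at base 4244 from -0.27 to 0.034 and Erc1 at base 3634 from -0.070 to 0.029. The cause was not tested.

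With the replicate number as a block, 0 probes passed and 3 had an unadjusted p under 0.05, where the share of all probes was not counted. The block rests on the numbers alone. Deviations of same-numbered samples correlated at 0.36, -0.04 and 0.22, and those of different-numbered samples between -0.35 and 0.13. These values do not settle if the numbers pair the samples. As a random block, slide had a consensus correlation of 0.02. Overlap was not counted with a block, and array number limits the precision.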
